A study of Mus musculus with 6 samples.

Results

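The 28 genes described here are those on the authors' deposited list of transcripts enriched in muscle spindle neurons whose titles name RNA, ribosomes, ribonucleases, ribonucleoproteins, ribonucleotides, splicing or translation. They were taken from the 591 listed probe sets with exactly 1 gene symbol, which stand for 570 genes. Titles that also named a transcription or chromatin factor, a kinase or a phosphatase were left out, which removed 2 probe sets (Eif2ak2 and Ctdsp2). Each of the 28 genes has 1 listed probe set with exactly 1 symbol. Probe sets of these genes outside the list cannot be named here and may read otherwise, so each value is that of 1 probe set. A further 3 listed probe sets with such titles carry several symbols and name no gene here. The data were 6 arrays, each hybridised with amplified RNA from a pool of sorted mouse proprioceptors, the dorsal root ganglion neurons that report muscle length and tension to the spinal cord. All animals carried 3 transgenes, Egr3::WGA-cherry, PV:Cre and Thy1-lsl-YFP, on a mixed C57bl/129sv background, were of both sexes, and were collected at postnatal days 7 to 10, with no untreated or otherwise different control group. Neurons with both Cherry and YFP formed the group enriched for muscle spindle afferents (MS, 3 arrays, about 1250 neurons each). Neurons with YFP and no Cherry formed the group enriched for Golgi tendon organ afferents (GTO, 3 arrays, about 725 neurons each). The alleles limit both groups as models: by their names, Cre was driven by the parvalbumin gene and the Cherry tracer by Egr3, so a neuron without tracer was sorted as GTO. Each sample pooled neurons from several sorts, and the animals behind each pool are not given in the sources used here. With amplified RNA from pools of neurons, fewer cells of a type and less RNA per cell cannot be told apart.

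RNA polymerases copy genes into RNA, general factors such as TFIID place RNA polymerase II at promoters, spliceosomes remove introns, and RNA-binding proteins steer splicing, storage and decay. Transfer RNAs are trimmed and chemically modified before they serve in translation, and mitochondria use ribosomes of their own to make a few respiratory chain subunits. Proprioceptors maintain long myelinated axons, and like nearly all cells they depend on most of this machinery.

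The members were chosen on the MS against GTO contrast of these same arrays, where the list's header states that 5-fold or more and a p under 0.08 were required. Their higher level in MS is therefore how they were picked and is not a finding. Counts from the fit across the whole table are given below beside their background only, and nothing is read from them. The values are log2 probe set values from the authors' table. GTO array 1 was closer to the MS arrays than to the other GTO arrays. Over the 16256 probe sets tested, which are not independent replicates, it correlated with MS arrays 1, 2 and 3 at 0.781, 0.805 and 0.866 and with GTO arrays 2 and 3 at 0.744 and 0.763, and GTO arrays 2 and 3 correlated with each other at 0.666. MS array 3 in turn correlated at 0.866 with GTO array 1, above its 0.818 and 0.843 with MS arrays 1 and 2. The count without overlap and the median difference are therefore also given without GTO array 1 and with that array as the only GTO array. Log2 4 is used here as the level under which a probe set counts as near background. It is a choice, set above the 27 bacterial spike-in probe sets, which read between 1.86 and 2.89. These mark background only if their RNA was not added to the samples, which was not checked. Values between 2.89 and 4 lie above them. All 28 genes read higher on each MS array than on any GTO array. So did 94.3% of the other 598 listed probe sets and 9.9% of the 16256 probe sets tested across the table. After quantile normalization 25 of the 28 genes did so, and after median centring 26. With values raised to a floor of log2 4 it was also 26, since Sfswap and Trmt10a each have an MS array under log2 4. The shares of other probe sets under these 3 settings are not given here. MS means lay between 4.75 and 9.75 and GTO means between 1.61 and 6.01, and levels of different probe sets are not set against each other here. Differences between the group means ran from 2.41 for Rbmx to 5.04 for Cirbp on the log2 scale. Their median was 3.64, beside 3.20 for the other 598 listed probe sets and 0.31 for all tested probe sets. Without GTO array 1 the median of the 28 genes was 3.87. All 28 again read higher on each MS array, a count that leaving out an array cannot change.

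**Figure D1:**
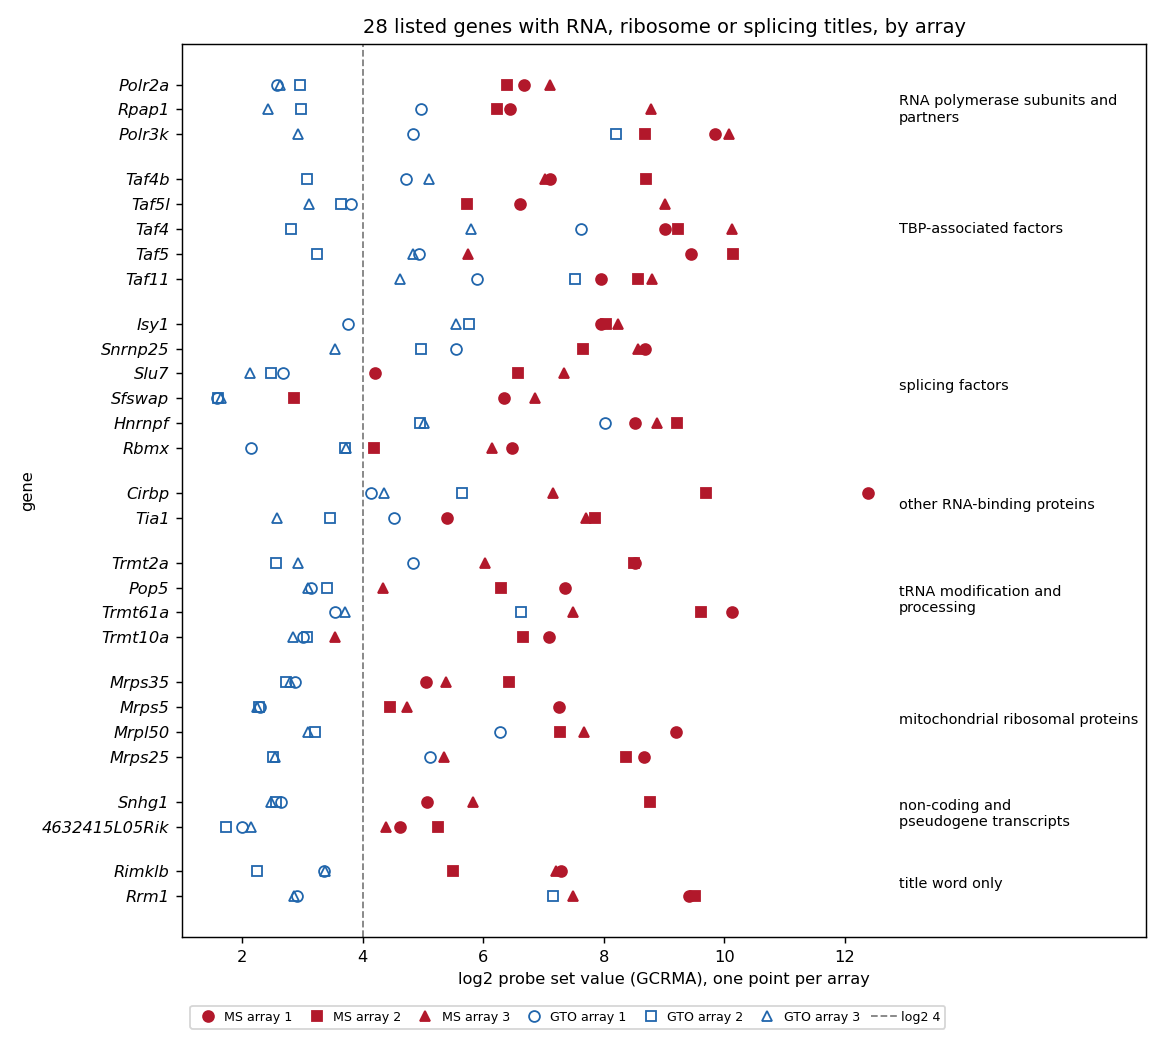
Log2 probe set values (x axis) of the 28 genes (y axis, grouped by role) on each of the 3 MS arrays (filled red symbols) and 3 GTO arrays (open blue symbols), with log2 4 as a dashed line. No red symbol lies to the left of a blue symbol of the same gene, and 12 genes have all blue symbols under log2 4.

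The label of RNA processing and translation covers these genes in part. By role, 16 of them act in splicing, RNA binding, tRNA maturation or the mitochondrial ribosome. Another 8 belong to the machinery of transcription, namely 3 genes of RNA polymerases and their partners and 5 TBP-associated factors. A long non-coding RNA and a pseudogene make 2 more. The last 2, Rrm1 and Rimklb, were taken in by a word of their title and have known roles in other pathways. No translation initiation or elongation factor and no cytosolic ribosomal protein is among the 28.

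GTO values lay near background for many of these genes. On every GTO array, 12 of the 28 (42.9%) read below log2 4, beside 32.6% of the other listed probe sets. At the other end, 3 genes (Cirbp, Hnrnpf and Taf11) reached log2 4 on every GTO array. On the MS side 26 of 28 reached it on all 3 arrays, the exceptions being Sfswap on MS array 2 and Trmt10a on MS array 3. Both of these are among the 12 and failed the filter of log2 4 on at least 3 arrays, and the other 26 entered the fit across the whole table. In that fit (limma, Benjamini-Hochberg over 16256 probe sets), 0 of the 26 passed an adjusted p of 0.05, beside 0.0185% of all probe sets tested that passed as higher in MS. At least 2-fold higher in MS at an unadjusted p under 0.05 were 26 of the 26, beside 6.48% of all tested, a count that the choice of the list fixes. It was 14 without MS array 1, 12 without MS array 2 and 12 without MS array 3. The filter of at least 3 arrays was kept there, so the 12 genes under log2 4 on every GTO array could not enter those fits. These lower counts are therefore set in part by the filter, and the share of all probe sets under these settings is not given here.

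**Figure D2:**
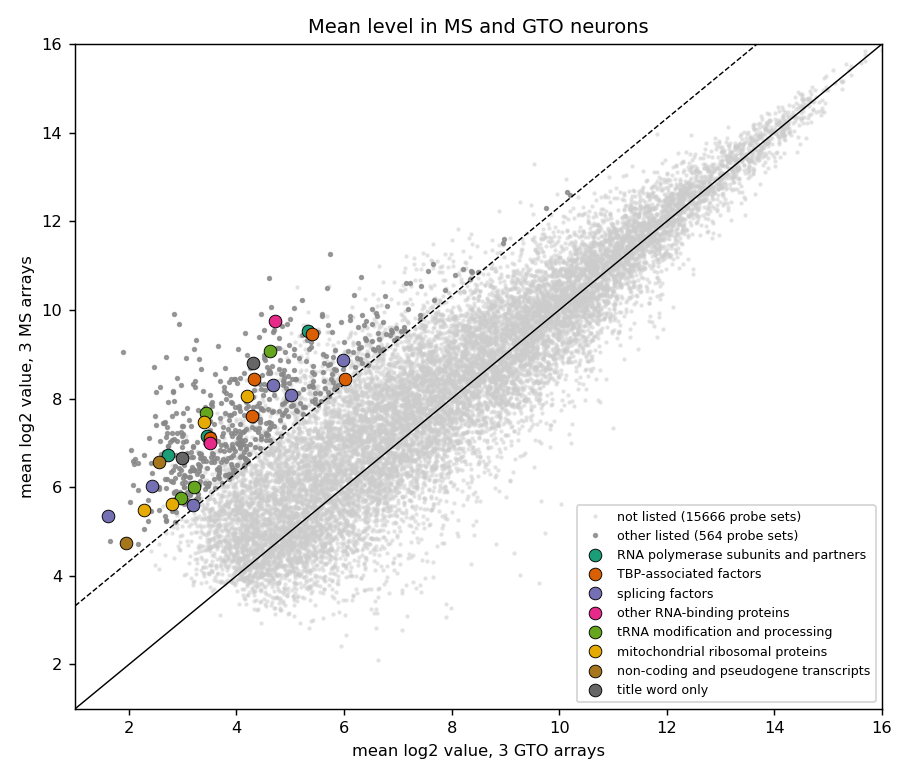
Mean log2 value over the 3 MS arrays (y axis) against that over the 3 GTO arrays (x axis) for the tested probe sets (grey) and the 28 genes (coloured by role, including the 2 that failed the filter). The solid line marks equal means and the dashed line the 5-fold minimum of the deposited list; the 28 genes lie above it, between GTO means of 1.61 and 6.01.

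Overall signal and neuron number were higher in MS, as the genes were, while the hybridisation controls were lower. The upper quartile of all log2 values was 6.78 to 6.86 on the MS arrays and 5.55 to 6.67 on the GTO arrays, and 62.2% to 62.9% of probe sets were under log2 4 in MS against 64.0% to 66.9% in GTO. The mean of the hybridisation control probe sets was 14.9 to 15.1 on the MS arrays and 15.2 to 15.6 on the GTO arrays. The 36 marker genes looked up covered proprioceptors, their MS and GTO subclasses, sensory neurons, glia, fibroblasts, macrophages, endothelium and erythroid cells. Of these, 3 can be named from the deposited list. These were Whrn, the scaffold protein whirlin of proprioceptors (4.96 ± 1.73 in MS and 2.31 ± 0.03 in GTO, SD, n = 3), Mbp, a myelin protein of Schwann cells (6.40 ± 0.68 and 2.82 ± 0.44), and Sparc, a matrix protein of fibroblasts (8.56 ± 1.16 and 3.61 ± 0.55). Whrn and Mbp read under log2 4 on every GTO array, and Whrn also on MS array 1, at 3.15. The other markers were not found on the list, among them Heg1 and Egr3 of the MS subclass and Pou4f3 and Nxph1 of the GTO subclass. Their probe sets cannot be named from these tables. No summed level of a marker list can thus be given, and no check of the sorted classes by these 4 genes or by Pvalb, Runx3 or Etv1. The part of array signal, neuron number and other cell types in the differences was not tested.

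The promoters of the 28 genes were read from RefSeq (GRCm38.p6), which gave 33 start sites for 24 of them. The windows were the 250 bases before each start, searched on both strands. The TATA box was read as TATAAA, the CCAAT box by its name, the GC box as GGGCGG, the site of ETS factors as CCGGAAG, that of Egr factors as GCGNGGGCG and that of YY1 as AAGATGGC. The palindromic consensus of NRF1 was searched too. An Egr match followed by G also holds the GC box letters. The 4 windows below are shown because their genes carry the results: Polr2a has the widest gap between groups, Taf4 holds the Egr letters at 3 places, Isy1 has the tightest MS arrays, and Cirbp has the largest difference of means (the first of its 2 starts in genome order is shown). Capitals mark every match, in either orientation.
Polr2a, chr11:69758634-69758883, minus strand: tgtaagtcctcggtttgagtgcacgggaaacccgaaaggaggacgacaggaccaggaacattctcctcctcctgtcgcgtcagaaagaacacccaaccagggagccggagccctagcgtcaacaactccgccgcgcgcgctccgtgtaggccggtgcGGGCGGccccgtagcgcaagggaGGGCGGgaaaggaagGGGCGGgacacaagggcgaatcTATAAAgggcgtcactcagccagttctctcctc
Taf4, chr2:179976647-179976896, minus strand: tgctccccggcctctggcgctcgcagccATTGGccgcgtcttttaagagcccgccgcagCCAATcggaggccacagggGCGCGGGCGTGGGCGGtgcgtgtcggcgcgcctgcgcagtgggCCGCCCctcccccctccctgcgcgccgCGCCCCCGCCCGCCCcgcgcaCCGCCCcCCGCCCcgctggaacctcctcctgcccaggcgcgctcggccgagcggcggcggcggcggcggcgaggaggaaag
Isy1, chr6:87838760-87839009, minus strand: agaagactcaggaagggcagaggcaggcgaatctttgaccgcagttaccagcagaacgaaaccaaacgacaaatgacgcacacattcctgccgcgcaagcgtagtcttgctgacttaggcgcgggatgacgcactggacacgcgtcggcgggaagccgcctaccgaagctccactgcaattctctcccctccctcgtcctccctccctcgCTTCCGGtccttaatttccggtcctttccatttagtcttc
Cirbp, chr10:80167589-80167838, plus strand: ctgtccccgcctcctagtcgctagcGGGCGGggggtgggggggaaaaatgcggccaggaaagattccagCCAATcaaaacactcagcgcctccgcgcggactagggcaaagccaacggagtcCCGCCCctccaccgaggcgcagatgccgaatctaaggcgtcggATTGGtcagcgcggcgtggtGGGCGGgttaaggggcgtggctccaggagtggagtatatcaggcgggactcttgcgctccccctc
The Polr2a window holds TATAAA beginning 33 bases before the start and 3 GC boxes. The Taf4 window is dense in GC boxes, with 6, and also holds CCAAT on each strand. The Isy1 window holds the ETS letters once, on the opposite strand, beginning 40 bases before the start. The Cirbp window holds 3 GC boxes and 2 CCAAT matches.

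Over the 33 windows the GC box was found in 60.6%, beside 32.7% of all 32851 promoters of the same length. The ETS letters were found in 24.2% beside 6.91%, the Egr letters in 12.1% (Taf4, Taf11 and Hnrnpf) beside 4.70%, CCAAT in 36.4% beside 33.8%, and TATAAA in 12.1% beside 12.4%. The YY1 letters were in 0 of the 33 windows, beside 1.56% of all promoters, and the NRF1 letters in 0, beside 0.782%. The median GC content was 60.0% in the 33 windows and 52.4% in all promoters, and its part in these shares was not tested. Starts of 1 gene can overlap, as in Sfswap and Trmt10a, so windows are not independent. A match is a stretch of letters and does not show that a factor binds there.

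Among the polymerase genes, Polr2a, a catalytic subunit of RNA polymerase II, was the member with the widest separation of the groups. Polr2a read 6.68, 6.39 and 7.10 on the MS arrays, always given in the order 1, 2, 3, and 2.58, 2.96 and 2.63 on the GTO arrays. The lowest MS array lay 3.43 above the highest GTO array, and all GTO values lay near those of the spike-in probe sets, so the 6.72 ± 0.36 of MS (SD, n = 3) corresponds to at least 6.59-fold over log2 4. Polr3k, a small subunit of RNA polymerase III, which makes tRNAs, read 9.84, 8.68 and 10.08 on the MS arrays and 4.83, 8.21 and 2.93 on the GTO arrays. Its means differed by 4.21, but GTO array 2 came within 0.47 of the lowest MS array, and the GTO SD was 2.68. Rpap1, a protein associated with RNA polymerase II, read 6.44, 6.23 and 8.79 on the MS arrays and 4.97, 2.97 and 2.42 on the GTO arrays. Rpap1 was thus above log2 4 on 1 GTO array, and its highest MS array stood apart from the other MS arrays by over 2 log2 units.

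TBP-associated factors build TFIID, the complex that recognises core promoters, and a relative of one of them, Taf5l, is a subunit of a histone acetyltransferase complex. Taf5l read 6.60, 5.73 and 9.02 on the MS arrays and 3.80, 3.63 and 3.11 on the GTO arrays, at least 8.67-fold over log2 4. Taf5 itself read 9.44, 10.15 and 5.75 on the MS arrays and 4.93, 3.24 and 4.83 on the GTO arrays. In Taf5 and Taf5l a different MS array was high: Taf5l was highest and Taf5 lowest on MS array 3. Taf4, a scaffold subunit of TFIID, read 9.01, 9.23 and 10.13 on the MS arrays and 7.62, 2.81 and 5.79 on the GTO arrays. Its paralogue Taf4b, known in mouse for its role in germ cells, read 7.11, 8.70 and 7.03 on the MS arrays and 4.71, 3.08 and 5.10 on the GTO arrays. For both paralogues GTO array 2 was the lowest array and lay under log2 4, while the other GTO arrays were above it. Taf11, a histone-fold subunit of TFIID, had a mean of 8.44 ± 0.44 in MS and 6.01 ± 1.46 in GTO (SD, n = 3), and its lowest MS array, at 7.96, lay close to GTO array 2, at 7.52. Over the 5 genes the differences of means ran from 2.43 to 4.11, with a median of 3.60.

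The 6 splicing genes ranged from Isy1, with nearly equal MS arrays, to Sfswap, with 1 MS array near background. Isy1, a component of the catalytic spliceosome, read 7.96, 8.03 and 8.24 on the MS arrays and 3.75, 5.76 and 5.55 on the GTO arrays. Its MS SD of 0.14 (n = 3) was the smallest of the 28 genes, and its groups lay 2.20 apart at their nearest arrays. Snrnp25, a protein of the U11/U12 particle of the minor spliceosome, which removes a rare class of introns, read 8.68, 7.66 and 8.56 on the MS arrays and 5.54, 4.97 and 3.54 on the GTO arrays. Slu7, a factor for the second catalytic step of splicing, read 4.20, 6.57 and 7.34 on the MS arrays and 2.68, 2.48 and 2.13 on the GTO arrays, at least 4.10-fold over log2 4. The GTO values of Slu7 were all near background, and MS array 1 only just exceeded log2 4. Sfswap, a regulator of alternative splicing, read 6.35, 2.86 and 6.86 on the MS arrays and 1.58, 1.59 and 1.65 on the GTO arrays. Sfswap was measured above log2 4 on 2 of 3 MS arrays only, which gives at least 2.56-fold from the mean of all 3.

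Hnrnpf and Rbmx, RNA-binding regulators of splice site choice, had narrow gaps between the groups. Hnrnpf had a mean of 8.87 ± 0.35 in MS and 5.99 ± 1.76 in GTO (SD, n = 3), and GTO array 1, at 8.02, came within 0.49 of the lowest MS array, at 8.51. Rbmx had a mean of 5.60 ± 1.24 in MS and 3.19 ± 0.91 in GTO. The MS mean was at least 3.03-fold over log2 4, and the lowest MS array, at 4.18, lay 0.46 above GTO array 3. Rbmx had the smallest difference of means of the 28 genes, and its groups overlapped under quantile normalization and under median centring. Both genes have close copies in the genome, and a second listed probe set that carries the Hnrnpf symbol also carries that of a predicted gene, so their signal may include other transcripts.

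Cirbp, an RNA-binding protein induced by mild cold, had the largest difference of means and the widest spread of the MS arrays. Cirbp read 12.38, 9.70 and 7.15 on the MS arrays and 4.14, 5.65 and 4.35 on the GTO arrays. The MS arrays thus differed by 5.23 among themselves, more than the difference of 5.04 between the group means, while all of them lay above the highest GTO array. Tia1, which helps to form stress granules and also acts in splicing, read 5.40, 7.86 and 7.71 on the MS arrays and 4.51, 3.45 and 2.57 on the GTO arrays. For Tia1 the low MS array was array 1, the array on which Cirbp was highest.

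The tRNA genes had 1 feature in common on the MS side: MS array 3 was the lowest MS array for 4 of 4, against 35.7% of all 28 genes, 52.5% of the other listed probe sets and 37.2% of all tested probe sets, counting probe sets at or above log2 4 on at least 2 MS arrays. Trmt61a, the catalytic subunit of a tRNA adenosine methyltransferase, read 10.13, 9.61 and 7.49 on the MS arrays and 3.54, 6.62 and 3.70 on the GTO arrays. Trmt2a, a tRNA uridine methyltransferase, read 8.52, 8.50 and 6.03 on the MS arrays and 4.83, 2.56 and 2.92 on the GTO arrays. Both were above log2 4 on a single GTO array, array 2 for Trmt61a and array 1 for Trmt2a. Trmt10a, a tRNA guanosine methyltransferase, read 7.09, 6.66 and 3.53 on the MS arrays and 3.00, 3.07 and 2.84 on the GTO arrays. Pop5, a protein subunit of the ribonucleases that trim precursor tRNAs and ribosomal RNA, read 7.35, 6.30 and 4.33 on the MS arrays and 3.14, 3.41 and 3.09 on the GTO arrays. For Trmt10a and Pop5 the GTO arrays were all near background, and the MS means were at least 3.39-fold and 3.98-fold over log2 4. MS array 3 read under log2 4 for Trmt10a, which leaves 2 measured MS arrays, and just above it for Pop5. MS array 3 was the lowest for 0 of the 6 splicing genes. These counts by role were noticed in the data and were not tested.

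Of the 4 genes of the mitochondrial ribosome, 3 encode proteins of its small subunit and Mrpl50 a protein of its large subunit. Mrps5 read 7.25, 4.45 and 4.73 on the MS arrays and 2.29, 2.28 and 2.25 on the GTO arrays. Mrps35 read 5.04, 6.43 and 5.38 on the MS arrays and 2.88, 2.73 and 2.79 on the GTO arrays. Both were near background on every GTO array, with MS means at least 2.78-fold and 3.07-fold over log2 4. Mrps25 read 8.67, 8.37 and 5.34 on the MS arrays and 5.12, 2.51 and 2.54 on the GTO arrays. Mrpl50 read 9.20, 7.27 and 7.67 on the MS arrays and 6.27, 3.21 and 3.09 on the GTO arrays. For both of these, GTO array 1 was well above the other GTO arrays, and for Mrps25 it lay 0.22 under MS array 3, the narrowest gap of the 28 genes. Mrps5 and Mrps35 have no order among their GTO arrays, since values under log2 4 have none.

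Snhg1, a long non-coding RNA whose introns carry small nucleolar RNAs, read 5.07, 8.77 and 5.83 on the MS arrays and 2.64, 2.55 and 2.48 on the GTO arrays. MS array 2 was well above the other MS arrays, and the MS mean of 6.56 ± 1.95 (SD, n = 3) was at least 5.89-fold over log2 4. The pseudogene 4632415L05Rik, related to a regulator of ribosome biogenesis, read 4.61, 5.24 and 4.39 on the MS arrays and 1.99, 1.72 and 2.14 on the GTO arrays. Its MS arrays were just above log2 4, so the bound is at least 1.68-fold, whereas the ratio in the authors' deposited table is 6.96.

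Rrm1 is the large subunit of ribonucleotide reductase, which makes the building blocks of DNA. Rrm1 read 9.41, 9.51 and 7.49 on the MS arrays and 2.91, 7.16 and 2.85 on the GTO arrays, so that GTO array 2 came within 0.34 of MS array 3. Rimklb is a ligase that makes the neuropeptide N-acetylaspartylglutamate. Rimklb read 7.29, 5.49 and 7.20 on the MS arrays and 3.36, 2.25 and 3.37 on the GTO arrays, at least 6.31-fold over log2 4.

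**Figure D3:**
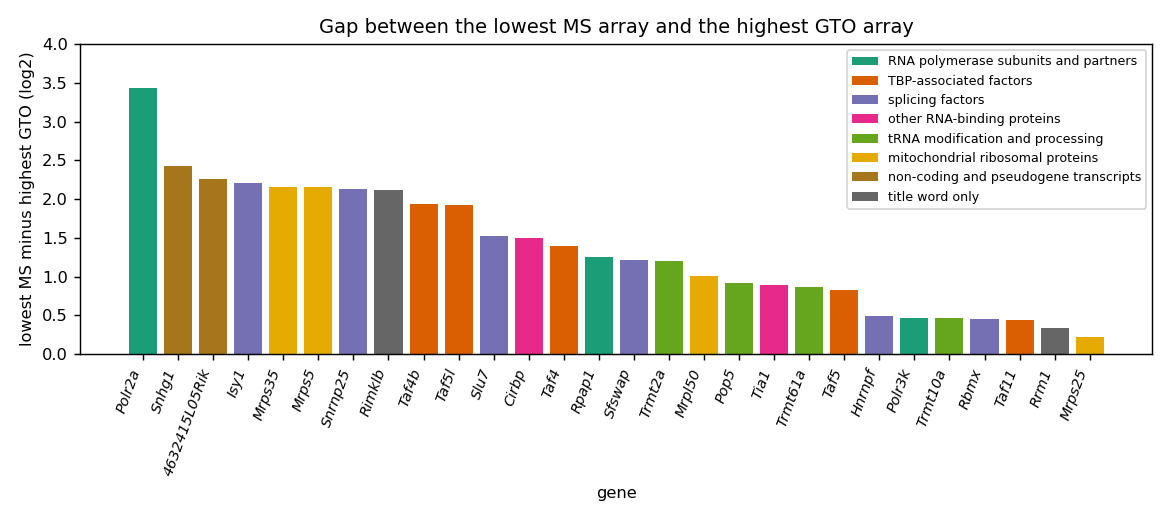
Lowest MS array minus highest GTO array (y axis, log2) for each of the 28 genes (x axis), coloured by role. For the 12 genes under log2 4 on every GTO array the gap is measured from a background value. Polr2a stands first at 3.43 and Mrps25 last at 0.22; 8 genes exceed 2 and 11 lie under 1.

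Across the 28 genes the arrays of a group differed widely. In 18 the SD over the MS arrays exceeded 1, and the median SD was 1.31 in MS and 0.96 in GTO, beside 0.96 and 0.89 for the other listed probe sets and 0.69 and 0.98 for all tested. In the same order of arrays, the median level of the 28 genes was 7.32, 7.76 and 7.18 in MS samples and 3.77, 3.14 and 3.01 in GTO samples. The other listed probe sets had medians of 7.80, 7.79 and 7.23 on the MS arrays and 4.47, 3.45 and 3.42 on the GTO arrays. In both sets GTO arrays 2 and 3 had lower medians than GTO array 1. On GTO arrays 1, 2 and 3, 13, 8 and 7 of the 28 genes reached log2 4. With GTO array 1 alone against the MS arrays, a choice made after the data had been seen, the median difference was 3.05. All 28 genes then read higher on each MS array, which was fixed in advance, since they did so against all GTO arrays.

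**Figure D4:**
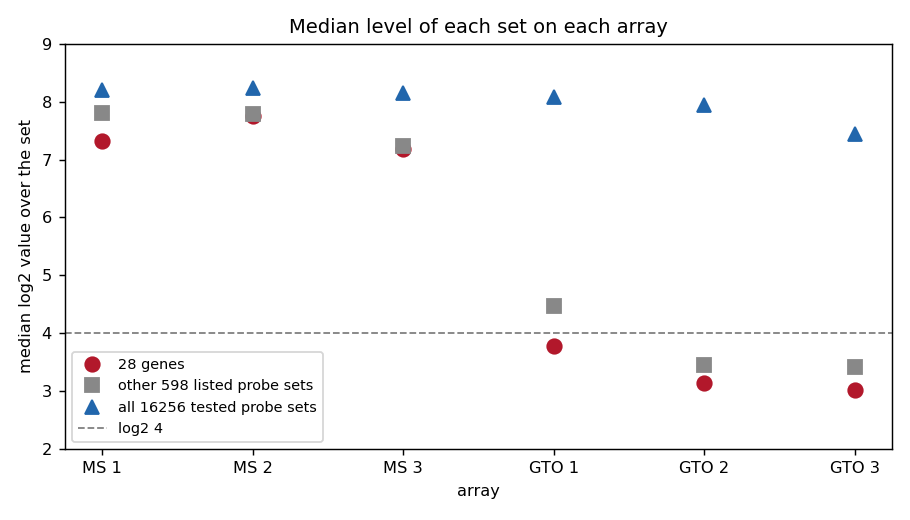
Median log2 value (y axis) on each of the 6 arrays (x axis) over the 28 genes (red circles), the other 598 listed probe sets (grey squares) and all 16256 tested probe sets (blue triangles), with log2 4 dashed. The 28 genes lie between 7.18 and 7.76 on the MS arrays and between 3.01 and 3.77 on the GTO arrays.

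The lowest MS array was array 1 for 8 genes, array 2 for 10 and array 3 for 10. The share for array 3 was 35.7% of the 28 genes, near the 37.2% of all tested probe sets. It was 52.5% of the other listed probe sets. Among the 16 genes at or above log2 4 on at least 1 GTO array, the highest GTO array was array 1 for 9, array 2 for 6 and array 3 for 1, Taf4b. The other 12 genes have no order in GTO. The genes that were high on GTO array 2 were named above: Polr3k, Rrm1, Taf11 and Trmt61a each read over 6.5 there and less on both other GTO arrays. Thus no single array gave the low or high values of all members.

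**Figure D5:**
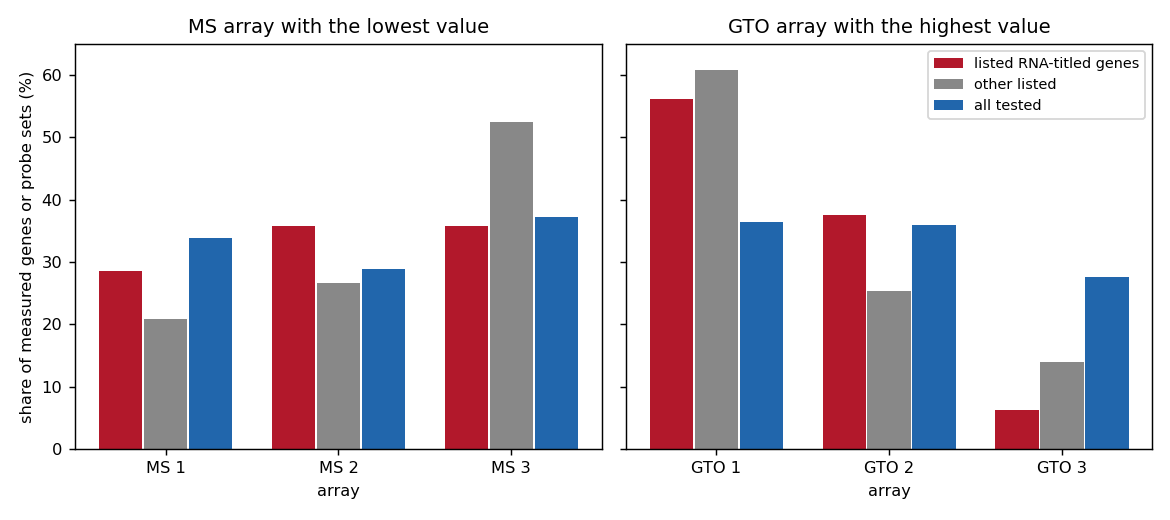
Share (y axis, %) of the genes described (red), the other listed probe sets (grey) and all tested probe sets (blue) for which each MS array had the lowest MS value (left, among those at or above log2 4 on at least 2 MS arrays) or each GTO array the highest GTO value (right, among those at or above log2 4 on at least 1 GTO array, 16 of the 28 genes). MS array 3 is lowest for 35.7% of the 28 genes, 52.5% of the other listed probe sets and 37.2% of all tested. GTO array 1 is highest for 56.2% of the 16 genes, 60.8% of the other listed and 36.4% of all tested.

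Members just inside the 5-fold minimum of the list were Rbmx, with a ratio of 5.33 in the authors' deposited table, and Taf11, with 5.40. The next ratio in the authors' deposited table was well above it, at 6.86 for Pop5. Nearest the p limit was Trmt10a, with 0.0678 in the authors' deposited table. Probe sets just under 5-fold have no gene name in the tables used here. The largest ratio in the authors' deposited table was 32.8, for Cirbp. The rule of the list selected 1.39% of 45037 probe sets as higher in MS. Recomputed, it kept 14, 17 and 22 of the 28 genes without MS array 1, 2 and 3 in turn. Without GTO array 1, 2 and 3 in turn it kept 18, 19 and 13. The share of all probe sets under these settings is not given here.

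Other genes of these pathways were looked up on the deposited list from 13 gene lists with 495 genes, of which 17 stood on it, 8 of them among the 28. The lists of translation initiation factors (46 genes), translation elongation and termination factors (19), cytosolic ribosomal proteins (69) and tRNA synthetases (37) had 0 genes on it. The list names only probe sets that were higher in MS, so absence says nothing of a gene's level, and without the array annotation no share per pathway can be given. The 9 further genes, like the 28, were chosen by the authors on these arrays. In limma 0 of them passed the adjusted threshold, beside 0.0185% of all probe sets tested that passed as higher in MS. An unadjusted p under 0.05 was found for 8 of them, a count that the choice of the list favours. The share of all probe sets tested under that unadjusted limit alone is not given here, and nothing is read from the count.

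The 9 were spread over splicing, RNA decay, microRNA silencing, RNA export and RNA demethylation. Eftud2, the GTPase of the U5 particle of the spliceosome, read 7.72, 8.26 and 10.04 on the MS arrays and 3.70, 3.74 and 2.59 on the GTO arrays. Srrm4, a splicing regulator of neuronal microexons, read 8.18, 7.65 and 8.58 on the MS arrays and 4.37, 4.33 and 2.71 on the GTO arrays. Eftud2 was thus near background on every GTO array, and Srrm4 was above log2 4 on GTO arrays 1 and 2. In the RNA exosome, Exosc7 had means of 7.45 ± 3.16 in MS and 2.94 ± 0.10 in GTO (SD, n = 3) and Exosc10 of 7.13 ± 0.30 and 4.05 ± 1.63. Exosc7 read under log2 4 on MS array 3, at 3.91, and on every GTO array. Cnot2, of the complex that shortens poly(A) tails, had means of 6.54 ± 0.93 and 2.17 ± 0.64. Tnrc6a and Tnrc6b, partners of Argonaute in microRNA silencing, had means of 7.83 ± 1.01 and 9.14 ± 1.17 in MS and 4.05 ± 2.15 and 4.76 ± 2.23 in GTO, with GTO array 1 at 6.51 and 7.32. Thoc1, of the complex that couples transcription to RNA export, and Fto, an RNA demethylase, had means of 9.11 ± 0.47 and 12.65 ± 0.93 in MS and 6.72 ± 1.31 and 10.15 ± 0.55 in GTO. Thoc1 and Fto were above log2 4 on all 3 GTO arrays, as 3 of the 28 genes were.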

How the data were processed

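The deposited table holds log2 probe set values of the 6 arrays, and the submitters' processing notes name GCRMA, which corrects background and normalizes arrays, and Partek, with no version. The authors' deposited list adds a linear fold ratio (MS over GTO) and a p-value for each of 626 probe sets, which per the file headers were required to reach 5-fold with p under 0.08. The deposited ratios were checked: 2 to the power of the difference of mean log2 values gave the deposited ratio of each of the 28 genes within a relative deviation of 8.12e-06. The genome build and array annotation are not given in the sources used here, so only listed probe sets have gene names. Symbols of all 28 matched RefSeq (GRCm38.p6) by Entrez identifier, and Taf4a became Taf4.

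The 64 control probe sets were left out, and the 16256 of 45037 others with log2 4 or more on at least 3 arrays were fitted in R 4.3.3 by limma 3.58.1 (two-sided, eBayes with no trend, Benjamini-Hochberg adjustment), tested on simulated data. The labels call the samples biological replicates, so p-values would measure the spread between pools of neurons, and the number of arrays limits the precision. Where all GTO arrays lay under log2 4, a fold is 2 to the power of the MS mean minus 4, a lower bound. Members and lists were chosen with earlier results of these data known. Every array is printed for Polr2a and for up to 4 genes per role with the widest gap between the groups. Roles were assigned gene by gene, and the titles of Hnrnpf and Rbmx, placed with the splicing genes, do not name splicing. Alternatives were the replicate block, other filters, quantile normalization, median centring over tested probe sets, a floor at log2 4, an intensity trend, array weights and leaving out each array.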

Additional observations from a re-analysis of the deposited data

How the results depend on the processing

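All 28 differences kept their direction under every alternative that gave a value, which the choice of the list favours. The count of 0 genes past the adjusted threshold stayed 0 throughout, with the replicate block too; the block left 25 genes at least 2-fold higher at an unadjusted p under 0.05. Same-numbered MS and GTO arrays correlated at -0.06, 0.10 and 0.11 in their deviations from the group means. MS array 1 correlated best with GTO array 2 (0.09), and MS arrays 2 and 3 each with the GTO array of the same number. Over all pairs of arrays the values ran from -0.17 to 0.11. With 3 arrays per group they cannot tell whether the numbers pair the samples. The filter at log2 6 left 14 genes, which sets 14 for the looser count, for genes without overlap and for the rule of the list. Leaving out 1 array gave 12 to 25 by the looser count, 13 to 22 by the rule of the list, and medians of 3.36 to 3.87. The low end of the looser count came from leaving out an MS array. There the 12 genes under log2 4 on every GTO array failed the filter and were not tested. All 28 genes stayed without overlap, which leaving out an array cannot change. Quantile normalization and median centring shifted the median of all tested probe sets by -0.29 and -0.37; the median of the 28 genes was then 3.33 and 3.27. Groups then overlapped for Taf5, Mrps25 and Rbmx, and for Rbmx and Trmt10a. With a floor at log2 4 the median was 2.86, since background values are raised, and Sfswap and Trmt10a overlapped. With GTO array 1 alone it was 3.05, and against MS arrays 1 and 2 it was 3.19; this pair of settings was added with the values known. Of the single genes, 8 moved by more than 1 SD with the floor, 2 with median centring and 1 with quantile normalization. Values under log2 4 have no order.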
